A study of Mus musculus with 98 samples.

Results

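Medullary thymic epithelial cells (mTEC) sorted from newborn and 4-week-old mice were compared by RNA-seq of bulk populations. The members were all libraries labelled as unseparated mTEC of wild-type mice at these ages, 12 of the 98 samples of the study, with 6 at P0 (the day of birth) and 6 at 4 weeks. Mice were C57BL/6 without an engineered allele, and at each age 3 libraries carried the label prefix TXCK and 3 the prefix DFCK, whose meaning the labels do not give. Live CD45- stroma was sorted, the staining panel held the lectin UEA-1 and antibodies to EpCAM, Ly51, MHC class II, CD80 and TER-119, a marker of red cells, and libraries followed an ultra-low-input protocol equivalent to SMARTer. Digests of adult thymi were first depleted of CD45+ cells with beads. The number of cells and of mice behind a library was not given, so p-values measure the spread between these libraries, which may be technical. Further libraries served for comparison, namely cortical thymic epithelial cells (cTEC) at both ages and mTEC separated into mTEChi and mTEClo at 4 weeks, with 6 libraries per group.

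The thymic medulla is where T cells that react to the body's own proteins are deleted or turned into regulatory T cells. Its epithelium displays proteins of almost every other tissue, in part under the control of the nuclear regulator Aire, and presents them on MHC molecules. mTEClo cells carry little MHC class II and CD80 and hold precursors and chemokine-secreting cells, mTEChi cells carry much of both and include the Aire-expressing cells, and after Aire the medulla holds cells that resemble skin, gut, tuft or muscle cells.

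Libraries held 10017653 to 12839118 gene reads at P0 and 5785352 to 13355031 at 4 weeks. Scaled to 5000000 reads, 19018 ± 733 genes (SD, n = 6) were detected at P0 and 16310 ± 1998 (SD, n = 6) at 4 weeks, a difference of -2708 (exact permutation test, two-sided p = 0.00649). Library S113 of the 4-week group had the fewest reads and the fewest genes of its age, 12758 in all. Without it the difference was -1978 (exact permutation test, p = 0.013). Spearman correlations between libraries ran from 0.892 to 0.93 within P0, from 0.648 to 0.858 within 4 weeks and from 0.648 to 0.704 between S113 and the others of its age. Mitochondrial transcripts took 0.288 to 0.378% of gene reads at P0 and 0.608 to 1.24% at 4 weeks, without overlap. Reads of Ddx3y, a gene of the Y chromosome, were absent from 5 of 6 libraries at P0 and from 1 of 6 at 4 weeks, S113. The labels do not give the sex, so the presence of Ddx3y moved with age in most libraries, and in the TXCK libraries, where it was absent at P0 and present at 4 weeks, they cannot be told apart. The plot of library measures shows these values.

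**Figure D1:**
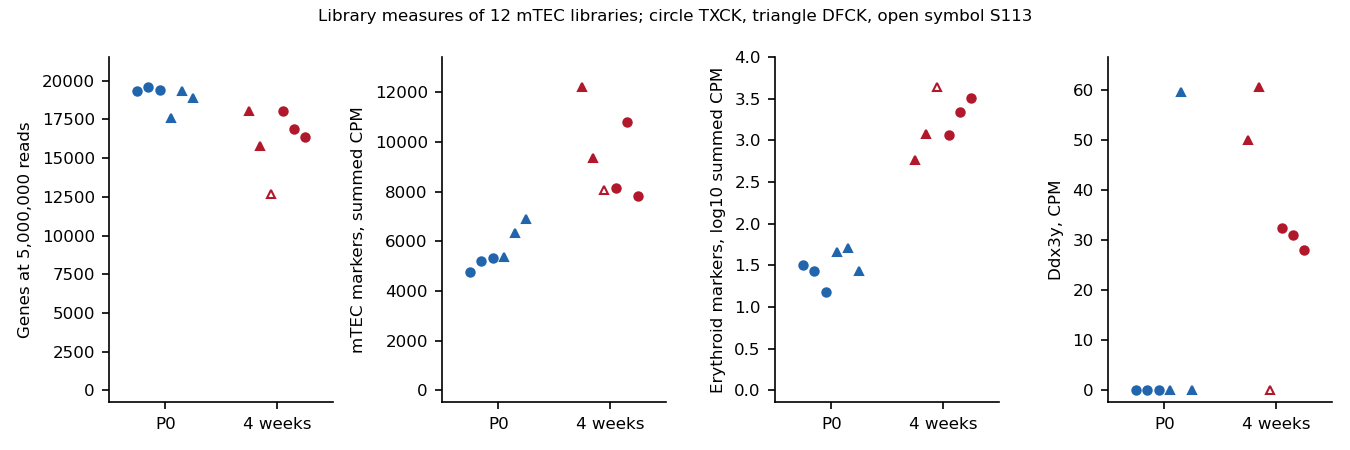
Each point is 1 mTEC library at P0 (blue) or 4 weeks (red), with the genes detected at 5000000 reads, the summed CPM of mTEC markers, the log10 summed CPM of erythroid markers and the CPM of Ddx3y on the vertical axes, circles for TXCK, triangles for DFCK and an open symbol for S113. Marker sums of mTEC, of which Ccl21a is a large part, did not overlap between the ages. Erythroid sums lay between 15.2 and 51.1 CPM at P0 and between 574 and 4336 CPM at 4 weeks. Ddx3y was at 0 in 5 P0 libraries and in S113.

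Levels are reads of a gene per 1000000 gene reads (CPM) scaled by TMM, which corrects library sizes for composition, and a gene is said to have risen or fallen from P0 to 4 weeks where the adjusted p of edgeR's quasi-likelihood test was under 0.05. In the 12 libraries 979 genes (6.16%) passed. The gene lists were chosen with earlier results of these data known. Counts of list members beside the share of all genes are thus descriptions and no tests of a list. The labelled cell type was checked against its markers. The 12 mTEC markers summed to 4781 to 6911 CPM at P0 and to 7825 to 12200 CPM at 4 weeks. Epcam, the adhesion molecule of epithelia, stood at 477 to 604 CPM (median 523) at P0 and at 341 to 715 CPM (median 651) at 4 weeks, and the basal keratins Krt5 and Krt14 changed by 0.61 and 0.68 on the log2 scale without passing the test. Of the markers 4 rose, compared with 3.71% of all 15883 genes tested, and none fell. They were the chemokine Ccl21a (log2 fold change 1.61, whose near-identical gene copies may share reads), Ly6d (1.96), a marker of maturing epithelium, and the tight-junction claudins Cldn4 (1.52) and Cldn3 (0.91).

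Genes of other cells that a sort could carry along were read next. Thymocyte markers summed to 46.3 to 106 CPM at P0 and 40.8 to 111 CPM at 4 weeks, and none of 12 passed the test. None of 6 fibroblast, 5 endothelial and 6 mural markers passed either. The mural sum, 2268 to 3392 CPM at P0 and 1391 to 3386 CPM at 4 weeks, was mostly Rgs5. Markers of myeloid and B cells summed to 256 to 390 CPM at P0 and to 408 to 696 CPM at 4 weeks, without overlap. Of 10 tested 1 passed, compared with 3.71% of all genes that rose. Without S113 Cd68, a protein of phagocytes, passed as well (1.53, edgeR adjusted p = 0.0116). Lyz2, a lysozyme of phagocytes, rose (116.9 to 183.9 CPM (median 143.4) against 191.6 to 469 CPM (median 323)). Erythroid genes had the largest list median, 6.96. Hbb-bs, a beta globin, went from a median of 2.63 CPM (0.231 to 7.7) to 648 CPM (224.95 to 1876) (log2 fold change 7.86 ± 0.92 SE, edgeR adjusted p = 0.000193). Its copy Hbb-bt (7.26), the alpha globins Hba-a2 (7.12) and Hba-a1 (6.96) and the haem enzyme Alas2 (3.43) also rose, 5 of 7 members in all, compared with 3.71% of all genes. Globin copies are near identical, so the division of reads among them is uncertain. The labels name only CD45 as a gate for the bulk sorts, although TER-119, which would remove red cells, was in the panel. The part of these erythroid reads in the other changes was not tested.

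Genes of the cortical epithelium were also present. Prss16, a protease of the cortex (chr13:22002173-22009742, minus strand in GRCm38, the build of the files' mm10), fell. Libraries at P0 held 260.02 to 969 CPM (median 521) and those at 4 weeks 16.4 to 58.4 CPM (median 50.1), so that all 4-week libraries lay below all at P0 (log2 fold change -3.55 ± 0.38 SE, edgeR adjusted p = 9.75e-05). In cTEC the same gene was at 7759 to 17103 CPM at P0 and 11792 to 19949 CPM at 4 weeks, far above mTEC at either age. On the scale of all epithelial libraries, unseparated mTEC at 4 weeks held 16.4 to 60.1 CPM. That lay below every mTEChi library (64.7 to 89 CPM) and every mTEClo library (65.2 to 207 CPM) of that age. The cause was not tested, so the size of the fall depends on these libraries. Ctsl, a lysosomal protease that cuts antigens in the cortex, also fell (-1.30), although its groups overlapped and its adjusted p by edgeR without S113 was 0.0533. The proteasome subunit Psmb11 (9.56 and 3.09 CPM, medians at P0 and 4 weeks) and the endocytic receptor Ly75 (17.8 and 54.7 CPM) did not pass. In all, 2 of 10 cortical markers fell, compared with 2.46% of all genes, and none rose. In such bulk libraries, fewer cells of a type and less RNA per cell cannot be told apart.

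Of the 15883 genes tested, 589 rose and 390 fell, and the median change of all genes was -0.06 on the log2 scale. Without S113, 784 rose and 686 fell. In 561 genes (3.53%) every 4-week library lay above every P0 library, and in 590 (3.71%) below. Within TXCK, 376 genes rose and 267 fell, and within DFCK 10 and 1. With the presence of Ddx3y reads as a term, chosen after the data were seen, 346 rose, 227 fell, and 493 of the 979 were still called. S113 was the only 4-week library without Ddx3y reads and S45 the only P0 library with them. The age change under this term leans on these libraries. Calls lost under it cannot be told apart from the effect of these libraries.

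Among called genes of at least 10 CPM whose ages did not overlap, the globins had the 4 largest increases, and genes with few reads at birth followed. Anxa10, an annexin of gastric epithelium, went from 0 to 3.95 CPM (median 1.14) at P0 to 68.1 to 162.7 CPM (median 93) at 4 weeks (log2 fold change 6.25 ± 0.85 SE, edgeR adjusted p = 0.000621). Fabp9, a fatty acid binding protein of sperm, went from a median of 0.649 CPM (0 to 1.23) to 40.3 CPM (34.9 to 49.7) (6.09 ± 0.66 SE). Both were at or near 0 at P0 and present in every 4-week library. Next came Pnp2 (5.33), a purine nucleoside phosphorylase, Cela2a (5.03), a pancreatic elastase with 7.07 to 267.3 CPM at 4 weeks, Ces2e (5.01), an intestinal carboxylesterase, C4bp (4.62), a complement inhibitor of liver, Dapl1 (4.50), an epithelial gene, and Ccl6 (4.47), a chemokine. The wide span of Cela2a at 4 weeks set it apart from the others, and with the prefix as a term its edgeR adjusted p was 0.0942.

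By the same rule the largest decreases included Prss16, described above, and Grb10, described below. St8sia4, a polysialyltransferase, and Ednrb, an endothelin receptor, had no read in any 4-week library. At P0 they were at 3.68 to 26 CPM (median 11.1) and 3.15 to 26.7 CPM (median 9.71). Set at 3 reads over the 4-week group, their falls would be 292.01-fold and 229.4-fold. Reads that are PCR copies are not independent, so these values are no lower bounds. Chrng and Klhl41, both of skeletal muscle, fell by 5.45 and 3.33 on the log2 scale. Chrng, the fetal subunit of the acetylcholine receptor, was at 83.8 to 132.1 CPM (median 100.8) at P0 and at 0 to 9.54 CPM at 4 weeks. Ptbp2 (-5.23), a splicing regulator of neurons, Zfp568 (-4.55), a zinc finger repressor, Col19a1 (-2.67), a collagen, Epha3 (-2.56), an ephrin receptor, Egr2 (-2.39), a transcription factor, and Tmprss11d (-2.22), a membrane protease, followed, all without overlap between the ages. Klhl41 and Zfp568 did not pass with the prefix as a term (edgeR adjusted p = 0.0585 and 0.0653).

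**Figure D2:**
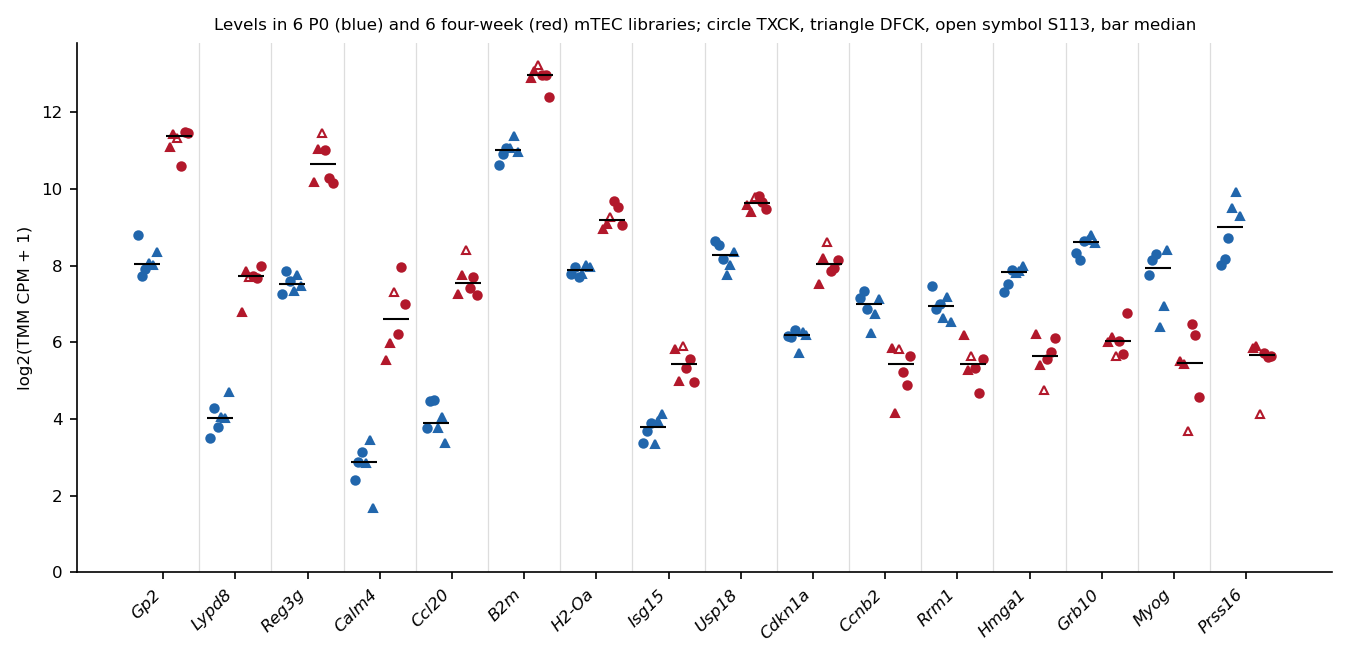
Levels of 16 genes on a log2(TMM CPM + 1) scale, 1 point per library, blue for P0 and red for 4 weeks, with circles for TXCK, triangles for DFCK, an open symbol for S113 and a bar at the median. The genes were picked among those that rose or fell. The 6 libraries of each age lay apart for 15 of them, and only Myog, at 83.6 to 337 and 11.9 to 88.4 CPM, overlapped. Of all genes tested, 3.53% lay wholly higher at 4 weeks and 3.71% wholly lower.

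Proteins of gut and liver had a median change of 2.46 on the log2 scale, against -0.06 for all genes. Of its 12 tested members 8 rose, compared with 3.71% of all genes, and none fell. Reg3g, a lectin secreted by gut epithelium against bacteria (chr6:78466269-78468872, minus strand), was at 152.2 to 230.7 CPM (median 184.3) at P0 and at 1131 to 2833 CPM (median 1659.9) at 4 weeks (log2 fold change 3.22 ± 0.24 SE, edgeR adjusted p = 6.25e-06). The lowest 4-week library thus exceeded the highest P0 library several times over. The apolipoproteins Apoc3 (4.28), Apoa4 (2.08) and Apoa1 (1.34), the acute-phase proteins Saa1 (3.34) and Saa3 (3.08) and the lipid carrier Fabp1 (3.15) rose as well. Of the genes named so far in this list, Apoa4 overlapped between the ages, and the other 6 did not. Of the 12 tested, 6 lay wholly higher at 4 weeks, compared with 3.53% of all genes. The transcription factor Hnf4g, at 1.73 without passing, passed without S113 (1.91, adjusted p = 0.0365).

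Of 12 genes of microfold and secretory cells 4 rose, compared with 3.71% of all genes, and none fell, with a median change of 2.37. Microfold cells carry antigens from the gut lumen to immune cells beneath. Gp2, their receptor for bacteria (chr7:119442537-119459285, minus strand), was at 209.9 to 443 CPM (median 261.5) at P0 and 1553 to 2868 CPM (median 2663) at 4 weeks (log2 fold change 3.08 ± 0.21 SE, edgeR adjusted p = 3.25e-06). Lypd8, a colonic protein that binds flagellated bacteria, went from a median of 15.3 CPM (10.3 to 24.9) to 210.4 CPM (108.9 to 254.00) (3.64 ± 0.26 SE). The mucin Muc13 (3.02) and the chemokine Ccl9 (2.83) also rose, and in all 4 genes the ages did not overlap. Of the 12 tested, 5 lay wholly higher at 4 weeks, compared with 3.53% of all genes. Sox8, a transcription factor needed by microfold cells, changed by 2.26 from a median of 2.76 to 12.1 CPM and did not pass, and Tnfaip2 changed by 0.69.

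Of 16 genes of keratinocytes that have left the basal layer 7 rose, compared with 3.71% of all genes, and none fell. All 16 changes were positive, with a median of 1.70. Calm4, a calcium-binding protein of the epidermis (chr13:3837757-3838673, plus strand), was at 2.22 to 9.93 CPM (median 6.3) at P0 and at 45.5 to 250.03 CPM (median 100.5) at 4 weeks (log2 fold change 4.28 ± 0.48 SE, edgeR adjusted p = 0.000143). Spink5, an inhibitor of skin proteases, went from a median of 9.59 CPM (3.76 to 21.4) to 177.5 CPM (22 to 378). Krtdap (3.71), Dmkn (2.68), Sbsn (2.51) and the suprabasal keratin Krt1 (1.85) rose without overlap. Krt10, the partner of Krt1, rose by 3.75 but overlapped, since the lowest 4-week library, S113, held 11.5 CPM and the highest P0 library 26.1 CPM. Krt77 changed by 1.47 and passed only without S113, where it was at 0.16 CPM (edgeR adjusted p = 0.00734). With the Ddx3y term 2 of the 16 rose, and in DFCK alone none passed.

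Among 15 keratins 4 rose, compared with 3.71% of all genes, and none fell, with a median of 0.61. With the Ddx3y term none passed and the median was -0.14, and in DFCK alone none passed either. S113, on which the fit with that term leans, was the lowest 4-week library for 10 of the 15, ties included. Krt17, a keratin of skin appendages, went from a median of 1494 CPM (1341 to 1983) to 2449.6 CPM (2019 to 3153). The simple-epithelium keratins Krt19 (1.44) and Krt7 (0.72) and Krt16 (2.41), a keratin of activated epidermis, rose too.

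Among 15 tissue antigens often used to follow promiscuous expression, 4 rose, compared with 3.71% of all genes, and none fell. With the Ddx3y term 2 rose, and in DFCK alone none passed. Spink1, a trypsin inhibitor of pancreas, went from a median of 0.127 CPM (0 to 0.238) to 7.43 CPM (4.43 to 13.6), and Ins2, which encodes insulin, from a median of 0.229 CPM (0.0793 to 0.69) to 2.32 CPM (0.96 to 5.12) (log2 fold changes 5.88 and 2.98). Insulin transcripts had 22 reads at P0 in all, and the call was lost with the prefix as a term (edgeR adjusted p = 0.0775). Csn2, the milk protein beta casein, was present already at birth, at 509.8 to 938 CPM (median 846), and was at 1083 to 1765 CPM (median 1314) at 4 weeks (0.76 ± 0.16 SE, edgeR adjusted p = 0.0121). Fabp9, described above, also belongs to this list. Csn1s1, another casein, changed by 1.10 and did not pass.

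None of 12 regulators of this antigen expression passed the test in either direction. Aire (chr10:78030022-78043610, minus strand) was at 191.04 to 313 CPM (median 240.00) at P0 and at 136.9 to 218.8 CPM (median 198.5) at 4 weeks (log2 fold change -0.39 ± 0.16 SE, edgeR adjusted p = 0.204). Fezf2, a transcription factor that drives other tissue antigens in mTEC, was at 294.3 to 580.4 CPM (median 434) and 139.3 to 699.5 CPM (median 410.1) (-0.06 ± 0.29 SE). For both the ages overlapped. The remodeller Chd4 changed by -0.63, Deaf1 by -2.11, the kinase Hipk2 by -0.46, the deacetylase Sirt1 by 0.97, topoisomerase Top1 by 0.44, the DNA-break kinase Prkdc by -0.73, the acetyltransferase Kat7 by -0.39, the chaperone Dnajc7 by -0.40 and the repressor Prdm1 by -0.57. Of the 12 values 10 were below 0 and the median was -0.43, against -0.06 for all genes. S113 was the lowest 4-week library, ties included, for 10 of the 12, and without it Top1 passed the test (0.70, edgeR adjusted p = 0.0345).

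The TNF receptor and NF-kappaB axis, through which developing T cells drive mTEC maturation, had no member called among 16 either. Of the receptors, Tnfrsf11a (RANK) was at 58.1 to 64.9 CPM (median 62) and 45 to 77.1 CPM (median 55.5), Cd40 at 347 to 484 CPM (median 412) and 242.1 to 389 CPM (median 348), and Ltbr changed by -0.33. The decoy receptor Tnfrsf11b (osteoprotegerin) was at 890.0 to 1395 CPM (median 1150.3) and 554 to 1085 CPM (median 880.0). In all of these receptors the ages overlapped. Of the adaptors, Traf2 changed by -0.07, Traf3 by 0.22, Traf5 by -1.31 and Traf6 by -1.34, and of the kinases Map3k14 by -0.82, Chuk by 0.23 and Ikbkb by -0.30. Of the NF-kappaB subunits, Relb changed by -0.08, Nfkb2 by -0.44, Rela by -0.48 and Nfkb1 by 0.17. The inhibitor Nfkbia changed by 0.55, and its highest 4-week library was S113 with 3657 CPM. Traf6 passed without S113, where it was at 1.44 CPM (-1.09, edgeR adjusted p = 0.0092).

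**Figure D3:**
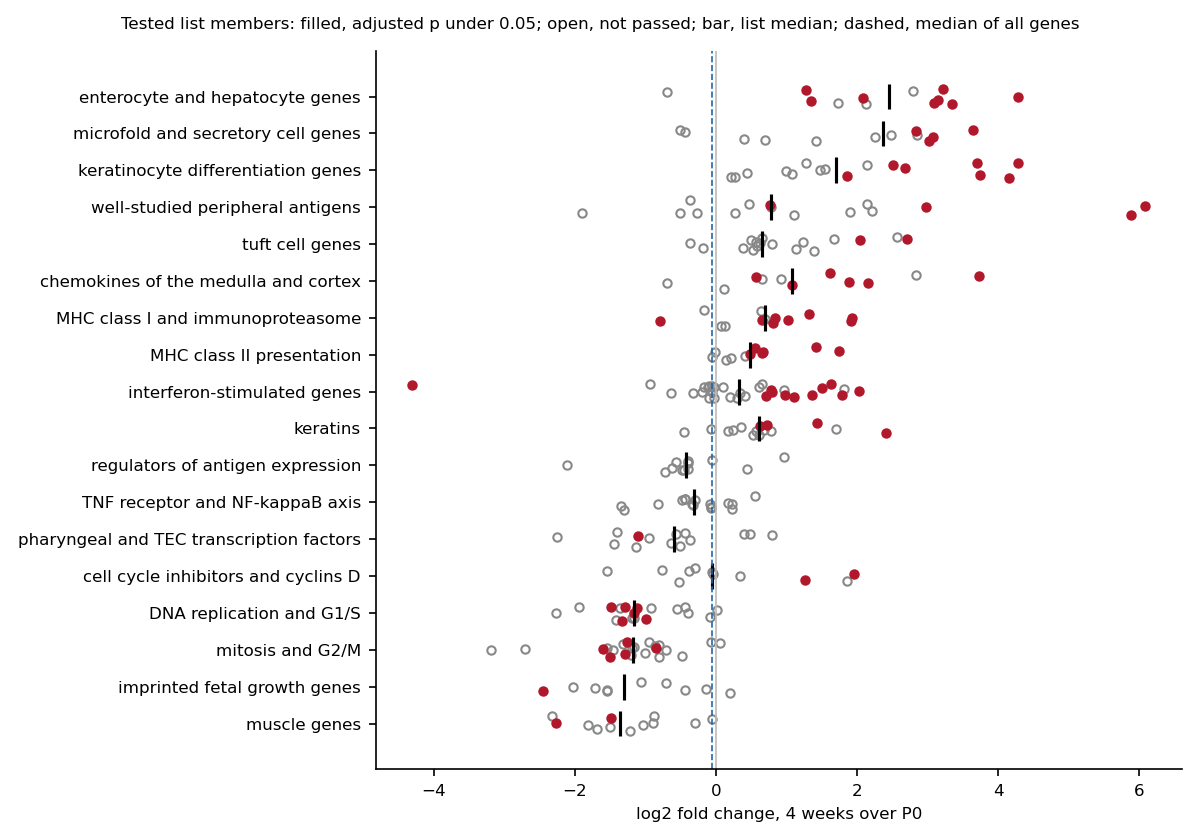
Log2 fold change from P0 to 4 weeks of each tested member of 18 gene lists, filled where edgeR's adjusted p was under 0.05 and open otherwise, with a bar at the list's median and a dashed line at -0.06, the median of all genes. Members of the gut and liver, microfold and keratinocyte lists lay mostly to the right, members of the replication, mitosis, imprinted and muscle lists mostly to the left.

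MHC class II molecules present antigen to CD4 T cells, and 6 of 11 genes of this pathway rose, compared with 3.71% of all genes, while none fell. H2-Ab1, a chain of the classical molecule, was at 17739 to 22759.9 CPM (median 20578) at P0 and 26602 to 36934 CPM (median 33594) at 4 weeks. H2-Ab1, H2-Aa and H2-Eb1 rose by 0.67, 0.65 and 0.48. The largest changes were in both chains of H2-O, which restrains peptide loading. H2-Oa (chr17:34092340-34095234, plus strand) went from a median of 234.05 CPM (208.7 to 257.1) to 580.2 CPM (497 to 822) (1.42 ± 0.14 SE, edgeR adjusted p = 3.97e-05) and H2-Ob from a median of 32.1 CPM (24.4 to 56.8) to 136.7 CPM (62.4 to 149.9) (1.74 ± 0.26 SE). H2-DMb1, a chain of the molecule that loads peptide, rose by 0.55. In all 6 genes the ages did not overlap, where 3.53% of all genes lay wholly higher at 4 weeks, and the median of the list was 0.48. With the Ddx3y term 4 rose, and in DFCK alone none passed. Markers of myeloid and B cells summed higher at 4 weeks, as given above, and the part of such cells in the MHC class II rise was not tested.

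MHC class I molecules and the immunoproteasome, which cuts peptides for them, rose in 7 of 13 members, compared with 3.71% of all genes, and the median was 0.70. B2m, the light chain of every class I molecule (chr2:122147686-122153083, plus strand), went from a median of 2062 CPM (1575 to 2669) to 8059.6 CPM (5423 to 9691) (1.93 ± 0.15 SE, edgeR adjusted p = 6.37e-06). The immunoproteasome subunits Psmb8 (1.91) and Psmb9 (1.31), the heavy chains H2-K1 (1.02) and H2-D1 (0.65), the transporter Tap2 (0.83) and the activator Psme1 (0.81) rose with it. Erap1, the peptidase that trims peptides in the endoplasmic reticulum, fell instead, from a median of 165.4 CPM (129.3 to 195.7) to 96.5 CPM (69.7 to 110.1) (-0.79). Of 8 costimulatory and checkpoint ligands 2 rose and 1 fell, compared with 3.71% and 2.46% of all genes. Pdcd1lg2 (1.28) and Cd274 (0.85), both ligands of the inhibitory receptor PD-1, rose, and Icosl, the ligand of ICOS, fell from a median of 742 CPM (482 to 777) to 353 CPM (78.2 to 463) (-1.10). Cd80 changed by -0.20 and Cd86 by 0.76, and both were at 0 in S113. Without S113 Cd86 passed (1.03, edgeR adjusted p = 0.0461).

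Of 32 interferon-stimulated genes, 10 rose and 1 fell, compared with 3.71% and 2.46% of all genes, with a median of 0.32. Isg15, a ubiquitin-like modifier (chr4:156199424-156200818, minus strand), was at 9.12 to 16.6 CPM (median 12.8) at P0 and 30.2 to 58.4 CPM (median 42.7) at 4 weeks (1.79 ± 0.28 SE, edgeR adjusted p = 0.00156). Usp18, the protease that removes it, was at 213.8 to 395 CPM (median 307) and 679 to 897 CPM (median 790.2) (1.36 ± 0.15 SE). Ifi27l2a (2.03), the tetherin Bst2 (1.64), Rtp4 (1.503), Xaf1 (1.10) and the nucleic acid sensor Zbp1 (0.97) rose as well. So did Oasl1 (0.80), the oligoadenylate synthetase Oas1a (0.78) and the transcription factor Irf7 (0.70). Of the 10 only Oasl1 overlapped between the ages. Over the 32 genes, 9 lay wholly higher at 4 weeks and 2 wholly lower, compared with 3.53% and 3.71% of all genes. The rise was not shared by all. Oas2, at 5.23 CPM or less throughout, fell (-4.31, lost without S113 with an edgeR adjusted p of 0.0601), Ifit2 changed by -0.94, and Ifit1 changed by 0.97 and passed without S113 (1.17, edgeR adjusted p = 0.00674). With the prefix as a term Oasl1 and Irf7 were lost (edgeR adjusted p = 0.054 and 0.061). In TXCK alone 4 rose, in DFCK alone none passed, and with the Ddx3y term 5 rose.

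Promoters of genes that moved together were read to show which known elements they hold. The 250 bases before a RefSeq start of 4 of these genes are given here in the orientation of the gene (GRCm38.p6), with the matches in capitals. For Isg15 and Bst2 the capitals mark the interferon-stimulated response element, which is GAAA, 2 bases of any kind and GAAA, on either strand and with overlapping copies. For B2m they mark this element and the NF-kappaB element, and for H2-K1 the NF-kappaB element alone.
Isg15 (chr4:156200819-156201068, minus strand): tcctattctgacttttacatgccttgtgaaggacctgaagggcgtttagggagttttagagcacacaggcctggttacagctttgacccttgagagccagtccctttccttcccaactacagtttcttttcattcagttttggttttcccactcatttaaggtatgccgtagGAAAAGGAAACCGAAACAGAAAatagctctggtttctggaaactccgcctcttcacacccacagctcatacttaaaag
Bst2 (chr8:71537473-71537722, minus strand): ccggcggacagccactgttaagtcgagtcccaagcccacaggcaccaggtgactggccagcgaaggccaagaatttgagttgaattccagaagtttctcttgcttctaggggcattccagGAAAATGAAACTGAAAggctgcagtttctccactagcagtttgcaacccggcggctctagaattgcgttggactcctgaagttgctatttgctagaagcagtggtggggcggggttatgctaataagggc
B2m (chr2:122147437-122147686, plus strand): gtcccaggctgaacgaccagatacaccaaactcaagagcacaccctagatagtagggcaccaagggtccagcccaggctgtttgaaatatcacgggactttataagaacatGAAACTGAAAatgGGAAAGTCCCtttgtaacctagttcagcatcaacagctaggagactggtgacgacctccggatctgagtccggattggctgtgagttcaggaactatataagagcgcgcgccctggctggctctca
H2-K1 (chr17:34000348-34000597, minus strand): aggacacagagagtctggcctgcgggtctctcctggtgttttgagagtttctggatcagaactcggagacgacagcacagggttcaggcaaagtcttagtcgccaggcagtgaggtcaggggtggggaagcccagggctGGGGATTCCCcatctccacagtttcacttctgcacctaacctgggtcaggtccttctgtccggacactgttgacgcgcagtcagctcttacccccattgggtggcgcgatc
Windows were found for 24 of the 32 interferon-stimulated genes. The response element lay in 12 of these 28 windows and in 2.98% of all 32851 windows. Only 6 of the called genes had a window. The element lay in 3 of these 6, and its letters were not in the windows of Oasl1, Irf7 and Xaf1. The NF-kappaB letters searched are those in capitals, on either strand, and lay in 0.225% of all windows. Those of H2-K1 are a site known from class I promoters, so no count over the class I list is given.

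Of 18 genes of DNA replication and the G1/S transition 6 fell, compared with 2.46% of all genes tested, and none rose. Their median change was -1.17, and 17 of the changes were negative. With the Ddx3y term 3 fell. Rrm1, the large subunit of the enzyme that makes deoxynucleotides, was at 91.4 to 177.6 CPM (median 121.5) at P0 and 24.6 to 72.5 CPM (median 42.6) at 4 weeks (-1.49 ± 0.25 SE, edgeR adjusted p = 0.00269). Its partner Rrm2 (-1.29), the methylation regulator Uhrf1 (-1.33) and the helicase subunits Mcm4 (-1.16), Mcm7 (-1.12) and Mcm6 (-0.999) fell too. Mcm2 (-1.94) and Mcm3 (-2.27) were at 0 in some 4-week libraries and did not pass, and without S113 Mcm2 did (-1.68, edgeR adjusted p = 0.00517).

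The mitosis and G2/M list had a similar median, -1.18. Of 22 members 5 fell, compared with 2.46% of all genes, and none rose. Without S113, where 686 of all genes fell in place of 390, 9 members fell, and with the Ddx3y term 2 fell. Ccnb2, a cyclin of mitosis (chr9:70407692-70421547, minus strand), was at 74.9 to 162.00 CPM (median 127.1) at P0 and 16.7 to 56.9 CPM (median 42.5) at 4 weeks (-1.60 ± 0.29 SE, edgeR adjusted p = 0.00465). The centromere histone Cenpa (-1.50), the spindle protein Hmmr (-1.29), the kinase Aurka (-1.26) and the anaphase activator Cdc20 (-0.85) followed. Mki67, the usual marker of cycling cells, was at 6.52 to 24.6 CPM (median 17) and 0 to 5.4 CPM (median 0.44) and lay lower in every 4-week library, but its spread was wide and its adjusted p was 0.103. Top2a changed by -0.96. Cdk1 changed by -0.08 only. In DFCK alone no member of either cycle list was called.

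Cell cycle promoters are known for E2F elements in replication genes and for CHR and CCAAT elements in mitotic genes. The windows of Mcm6, with the E2F letters TTTGGCGC or TTTCCCGC in capitals, and of Ccnb2 and Cdc20, with CHR letters TTTGAA and CCAAT letters CCAAT in capitals, both strands searched, read as follows.
Mcm6 (chr1:128359706-128359955, minus strand): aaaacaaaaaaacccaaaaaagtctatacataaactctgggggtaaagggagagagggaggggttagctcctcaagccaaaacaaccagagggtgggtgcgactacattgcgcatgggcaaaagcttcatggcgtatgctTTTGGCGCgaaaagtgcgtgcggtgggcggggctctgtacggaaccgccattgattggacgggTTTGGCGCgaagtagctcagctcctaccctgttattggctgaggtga
Ccnb2 (chr9:70421555-70421804, minus strand): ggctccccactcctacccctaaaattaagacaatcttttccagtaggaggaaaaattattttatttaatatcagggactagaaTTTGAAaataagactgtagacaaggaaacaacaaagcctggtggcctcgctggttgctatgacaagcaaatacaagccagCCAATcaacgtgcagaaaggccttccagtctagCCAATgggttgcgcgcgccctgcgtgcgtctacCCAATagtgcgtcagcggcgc
Cdc20 (chr4:118437344-118437593, minus strand): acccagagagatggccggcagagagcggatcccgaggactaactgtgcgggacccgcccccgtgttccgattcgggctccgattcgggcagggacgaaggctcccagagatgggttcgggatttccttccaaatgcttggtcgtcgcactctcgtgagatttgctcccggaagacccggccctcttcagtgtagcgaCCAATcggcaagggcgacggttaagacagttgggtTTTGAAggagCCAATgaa
CCAAT lay in 16 of 18 windows of the mitosis list, against 33.8% of all windows, and in all 5 of the genes called. It also lay in 12 of 17 windows of the replication list and in all 7 windows of its called genes. TTTGAA lay in 7 of the 18, against 16% of all. The E2F letters lay in 4 of 17 windows of the replication list, against 1.3% of all. They were not in the windows of Rrm1, Rrm2 and Uhrf1.

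Inhibitors of the cycle and D cyclins had a median of -0.06, and 2 of 11 rose, compared with 3.71% of all genes. Cdkn1a (p21), a target of p53, was at 51.9 to 78.6 CPM (median 71.5) at P0 and 183.6 to 394 CPM (median 263.5) at 4 weeks (1.96 ± 0.18 SE, edgeR adjusted p = 2.79e-05). Cdkn2b (p15) went from a median of 46 CPM (43.5 to 52.2) to 125.8 CPM (41.4 to 145.3), with the lowest 4-week library, S110, below every P0 library and the groups overlapping. Cdkn1b changed by -0.06. Cdkn1c (p57), an imprinted gene, had a median of 1200.2 CPM at P0 and 372 CPM at 4 weeks and did not pass (-1.55, edgeR adjusted p = 0.0907).

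Several imprinted genes form a network that is active in growing fetal tissue and is shut down after birth. Of 10 tested, 9 had a negative change, with a median of -1.31, and 1 fell, compared with 2.46% of all genes. Grb10, an adaptor that restrains insulin and growth factor receptors (chr11:11930508-12038683, minus strand), was at 281.9 to 440.3 CPM (median 390.3) at P0 and 48.7 to 107.3 CPM (median 64.5) at 4 weeks (-2.46 ± 0.20 SE, edgeR adjusted p = 8.96e-06), and it was called in DFCK alone as well. Dlk1 (-1.55) and Mest (-1.72) lay lower in every 4-week library without passing, and Dlk1 passed without S113 (-1.34, edgeR adjusted p = 0.0384). Cdkn1c, above, belongs to this list too. Peg3 changed by -2.04, H19 by -1.07, Ndn by -0.71, Igf2r by -0.43, Igf2 by -0.14 and Plagl1 by 0.19. Igf2, at 8.79 CPM or less at P0, was low at both ages. Meg3 was too low to be tested, with 129 reads at P0 and none at 4 weeks, and Zim1 had 1 read. Set at 3 reads over the 4-week group, the fall of Meg3 would be 37.4-fold, which is no lower bound either.

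Of 8 oncofetal genes 4 were tested and 1 fell, compared with 2.46% of all genes. Hmga1, a chromatin protein of proliferating and embryonic cells (chr17:27556497-27563674, plus strand), fell from a median of 227.5 CPM (157.9 to 251.1) to 49.3 CPM (25.8 to 73) (-2.06 ± 0.23 SE, edgeR adjusted p = 0.000152). The RNA-binding proteins Igf2bp1 (-0.11), Igf2bp2 (-0.84) and Igf2bp3 (-1.45) did not pass. Lin28a had 83 reads over the P0 libraries and none at 4 weeks, Lin28b 74 and 49, Hmga2 12 and none, and Arid3a 26 and 178, all under the filter.

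Of 12 muscle genes, known from the muscle-like cells of the medulla, 2 fell, compared with 2.46% of all genes, and every change was negative, with a median of -1.36. Myog, the factor that commits cells to muscle, was at 83.6 to 337 CPM (median 247.8) at P0 and 11.9 to 88.4 CPM (median 43.3) at 4 weeks (-2.27 ± 0.47 SE, edgeR adjusted p = 0.00988), and Myl1, a myosin light chain, fell without overlap (-1.49). Without S113, where 686 of all genes fell in place of 390, 5 of 13 tested muscle genes fell. In TXCK alone, in DFCK alone and with the Ddx3y term none passed. Of 17 tuft cell genes 2 rose, compared with 3.71% of all genes. They were Ltc4s, which makes leukotrienes (1.49 to 10.1 CPM in medians), and Rgs13 (2.04). The tuft regulator Pou2f3 changed by 0.79, the channel Trpm5 by 0.52 and Dclk1 by 1.13. Without S113 Dclk1 passed (1.32, edgeR adjusted p = 0.0243). In that fit 4 tuft genes rose, where 784 of all genes rose in place of 589. Of 12 neuroendocrine genes only Scg5, a secretory granule chaperone, rose (0.84), against the same 3.71% of all genes, and of 12 ciliated cell genes none passed by edgeR. Their median, 0.88, was 0.40 with the prefix as a term, 0.09 in DFCK alone and -0.31 with the Ddx3y term.

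Chemokines guide thymocytes into the medulla, and 6 of 11 rose, compared with 3.71% of all genes, while none fell, with a median of 1.08. With the Ddx3y term 3 rose, and in DFCK alone 1. Ccl20, the ligand of CCR6 (chr1:83116766-83119167, plus strand), had the largest change, from a median of 14.1 CPM (9.36 to 21.7) to 187.7 CPM (149.6 to 339) (3.73 ± 0.28 SE, edgeR adjusted p = 6.25e-06). Of the CCR7 ligands, Ccl21a went from a median of 1233 CPM (727 to 2376) to 4321 CPM (2199 to 7084), with overlap, and Ccl19 from a median of 123.5 CPM (107.1 to 181.2) to 256.5 CPM (198.9 to 375), without (1.61 and 1.08). Ccl5 (2.16), Ccl27a (1.88), a skin chemokine, and Cxcl16 (0.57) also rose. Ccl17 changed by 2.84 from a median of 0.356 to 4.36 CPM and did not pass. None of 8 lymphoid cytokines, among them the T cell growth factor Il7, passed.

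Of 14 lineage factors 1 fell, compared with 2.46% of all genes, and none rose, with a median change of -0.60 and 11 negative changes. Pax9, a factor of the pharyngeal pouches, went from a median of 72.7 CPM (62.8 to 96.4) to 33.3 CPM (21 to 50.3) (-1.11 ± 0.23 SE, edgeR adjusted p = 0.011), and no factor passed in TXCK alone, in DFCK alone or with the Ddx3y term. Foxn1, the factor thymic epithelium depends on, was at 130.7 to 251.3 CPM (median 212.9) and 64.8 to 224.6 CPM (median 165.3) and did not pass. Trp63, a factor of stem cells in epithelia (-0.94), and Pax1 (-1.13) did not pass either. In the signalling lists few genes passed, and their counts are read against the 3.71% of all genes that rose. Jag1, a Notch ligand, rose from a median of 16.1 CPM (8.67 to 21.7) to 44.1 CPM (27.4 to 55.1) as the only one of 12 Notch genes, Igfbp6 (1.48) as the only one of 14 IGF and FGF genes and Sgk1 (1.49) as the only one of 11 glucocorticoid-responsive genes, which was lost with the prefix as a term (edgeR adjusted p = 0.0568). Without S113 Igfbp5 (1.09) and Klf9 (0.70) of the last 2 lists passed as well (edgeR adjusted p = 0.0171 for both). None of 16 Wnt genes and none of 16 genes of the basement membrane and hemidesmosome passed. Of 12 immediate-early and heat shock genes 2 fell, compared with 2.46% of all genes, and none rose. Junb fell from a median of 1774 CPM (1413 to 2112) to 955 CPM (554 to 1297) and Ier2 from a median of 945 CPM (697 to 1239) to 469.9 CPM (222.2 to 596). These genes respond to tissue handling within minutes, and the part of sorting in the difference was not tested.

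At 4 weeks the same tissue was also sorted into mTEChi and mTEClo, which shows in which fraction a gene that changed with age lay. Of 15443 genes tested, 1563 (10.1%) were higher in mTEChi and 968 (6.27%) in mTEClo. Among the 589 genes that rose with age, 228 (38.7%) were higher in mTEChi and 72 (12.2%) in mTEClo, compared with 9.99% and 6.51% of the 14812 genes tested in both comparisons. Among the 374 that fell and were tested in both, 33 (8.82%) were higher in mTEChi and 68 (18.2%) in mTEClo. Across these genes the age change and the mTEChi to mTEClo difference had a Spearman correlation of 0.189 and a Pearson correlation of 0.138 (n = 14812 genes). Genes are not independent replicates, the comparisons share no library, their libraries share the protocol, and the labels do not say whether they share mice.

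Lists whose members rose with age differed in the fraction where they were higher. MHC class II genes were higher in mTEChi in 10 of 11 cases, compared with 10.1% of all genes, H2-Oa by 2.38 on the log2 scale (edgeR adjusted p = 1.13e-06). MHC class II was in the staining panel, and the part of the gate in this difference was not tested. Markers of myeloid and B cells summed to 597 to 880 CPM in mTEChi and 46.2 to 315 CPM in mTEClo. Of 9 tested, 6 were higher in mTEChi, against the same 10.1%, and none in mTEClo. With a block for the step of the library number 3 were. The part of such cells in the MHC class II difference was not tested. Genes of gut and liver were higher in mTEChi in 4 of 12 cases, against the same 10.1%, and never in mTEClo. Interferon-stimulated genes went the other way, with 17 of 31 higher in mTEClo, compared with 6.27% of all genes, and 3 in mTEChi. Isg15 was at 48.1 to 142 CPM in mTEClo and at 18 to 30.9 CPM in mTEChi, and Rtp4 at 234 to 717 and 37.7 to 62.6 CPM. Keratinocyte genes differed between the fractions in none of 16 cases. For Gp2 no difference was detected either (-0.86, edgeR adjusted p = 0.294, 1559 to 4009 CPM in mTEChi, 736 to 9017 CPM in mTEClo), whereas Lypd8 was at 238 to 331 CPM in mTEChi and at 12.4 to 115.2 CPM in mTEClo. Ccl21a differed by -4.64 between mTEChi and mTEClo on the log2 scale, and Aire by 2.48. Of 18 replication genes 4 were higher in mTEClo, against the same 6.27%, and none in mTEChi. Of 7 erythroid genes 4 were higher in mTEClo, and 1 with a block for the step of the library number, which runs alike in the sorted groups of an age.

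**Figure D4:**
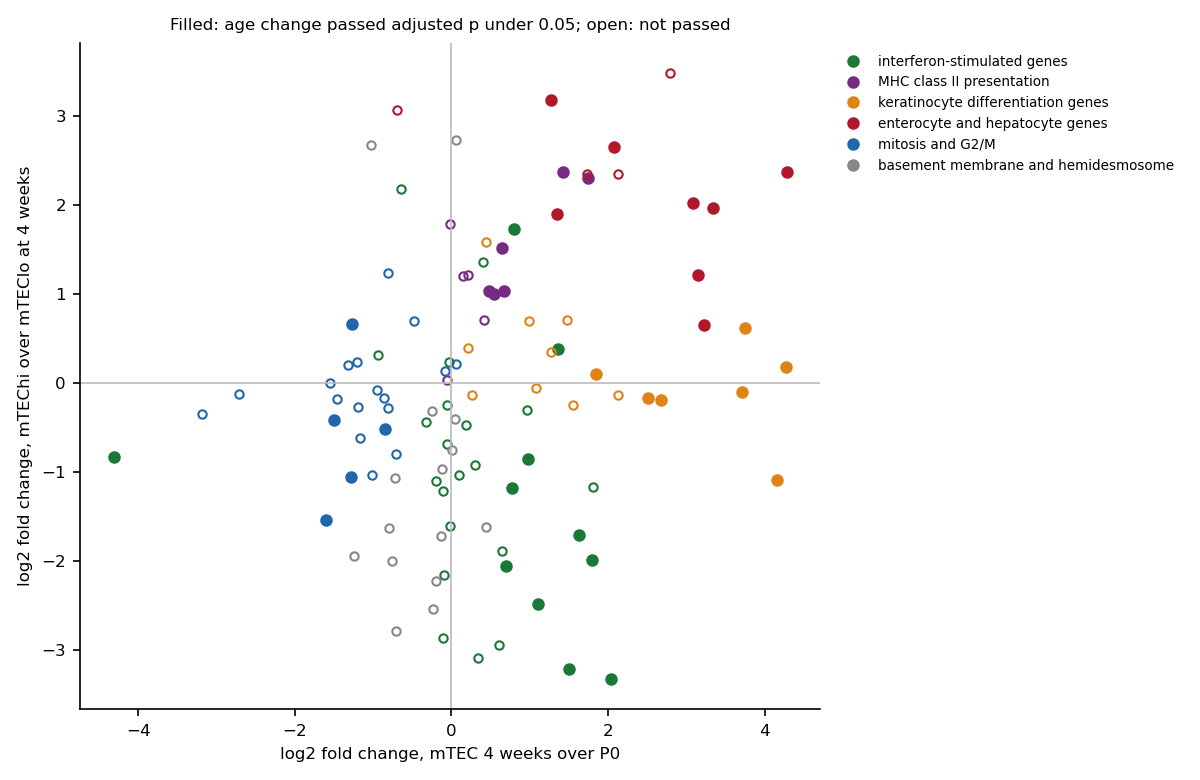
Log2 fold change from P0 to 4 weeks (horizontal axis) and from mTEClo to mTEChi at 4 weeks (vertical axis) for the members of 6 gene lists, filled where the age change passed edgeR's adjusted p under 0.05. MHC class II and gut and liver genes that rose lay above 0 on the vertical axis, most interferon-stimulated genes that rose lay below it, and keratinocyte genes lay near it.

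The change with age in mTEC was set against that in cTEC to see which changes the lineages shared. A model over 24 libraries tested the difference of both changes in 17284 genes. In 201 genes (1.16%) the change was more positive in mTEC and in 727 (4.21%) more negative. The median difference over all genes was -0.21 on the log2 scale, and with RLE size factors it was -0.05 and the counts 296 and 608, so the scaling set part of the split. Without S113 the more positive differences numbered 343, and by DESeq2 502. cTEC libraries at 4 weeks held 550 to 2423 CPM of thymocyte markers against 32 to 60.9 CPM at P0, while mTEC held 111 CPM or less at both ages, and 11 of 12 thymocyte markers had a more negative difference, 7 with the step as a block. Sums of fibroblast, mural, endothelial and erythroid markers in cTEC were also higher at 4 weeks, without overlap. Their medians went from 82.4, 130.1, 3.68 and 0.146 CPM to 724, 362.4, 38.3 and 207.2 CPM. In mTEC the erythroid sum was higher as well, and the others overlapped between the ages. The part of RNA of thymocytes and of these other cells in the differences was not tested.

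The cell cycle lists changed differently in the sorted mTEC and cTEC libraries. Of 18 replication genes 11 and of 22 mitosis genes 11 had a more negative change in mTEC, compared with 4.21% of all genes. In cTEC 13 of 17 and 8 of 22 rose, compared with 12.2% of all genes tested there. Markers of thymocytes and of other cells were also higher in cTEC at 4 weeks, as given above. The part of RNA of such cells in these rises was not tested. Ccnb2 was at 25.2 to 102.1 CPM in cTEC at P0 and 58.1 to 172.7 CPM at 4 weeks, a difference of -2.45 between the changes (edgeR adjusted p = 0.00157). Prss16 fell in mTEC and changed by 0.37 in cTEC, a difference of -3.95 (edgeR adjusted p = 5.63e-06). Of 32 interferon-stimulated genes 4 had a more positive change in mTEC, compared with 1.16% of all genes, and 2 with the step as a block. Isg15 was among the 4 (1.74, edgeR adjusted p = 0.00593), and in cTEC it was at 35.1 to 80.2 CPM at P0 and 27.8 to 78.2 CPM at 4 weeks. Cdkn1a (1.45), Nfkbia (1.70), Krt10 (4.08), Krt17 (1.10) and Dclk1 (2.45) also had more positive differences. So did Junb (1.48) and Egr2 (2.30), although both fell in mTEC. The list of immediate-early and heat shock genes, which holds Junb, had a median change of -1.91 in cTEC and -0.36 in mTEC. For Grb10 no difference between the lineages was detected (0.54, edgeR adjusted p = 0.543), and it changed by -3.02 in cTEC. MHC genes rose in cTEC too, 9 of 12 of class I (median 1.35) and 9 of 11 of class II (median 0.70). None fell there, and 12.2% of all genes rose. Of 13 class I genes 6 had a more negative change in mTEC, compared with 4.21% of all genes, and 5 with the step as a block. None was more positive. Of 11 class II genes 1 was more negative.

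The genes with the largest differences between the lineages were mostly low in mTEC. More positive in mTEC were Tmc7, Kcne4, Ppp2r2b and Eda2r, where the medians of mTEC were 0.551, 0, 8.5 and 13.2 CPM at P0 and 0, 2.08, 1.82 and 8.92 CPM at 4 weeks. Only Sdcbp2, a syntenin, also rose in mTEC, from a median of 14.4 CPM (5.31 to 26.4) to 44.5 CPM (22.7 to 59.1) (1.52, edgeR adjusted p = 0.0309). More negative were St8sia4, described above, Rhoh, a GTPase of lymphocytes with 212 reads at P0 and none at 4 weeks in mTEC, the T cell receptor segment Trbv12-1, Upk3b, a uroplakin, and Car3, a carbonic anhydrase. In mTEC Upk3b and Car3 did not pass and changed by 1.37 and 0.61. The paper uses Upk3b as a marker of mesothelial cells, and the part of such cells in its difference was not tested. The fitted sizes, from -15.51 to 11.98, depend on libraries with no reads and are no measure of fold. With the step as a block, Tmc7, Kcne4, Sdcbp2, Trbv12-1, Upk3b and Car3 did not pass (edgeR adjusted p = 0.0964 to 0.428).

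**Figure D5:**
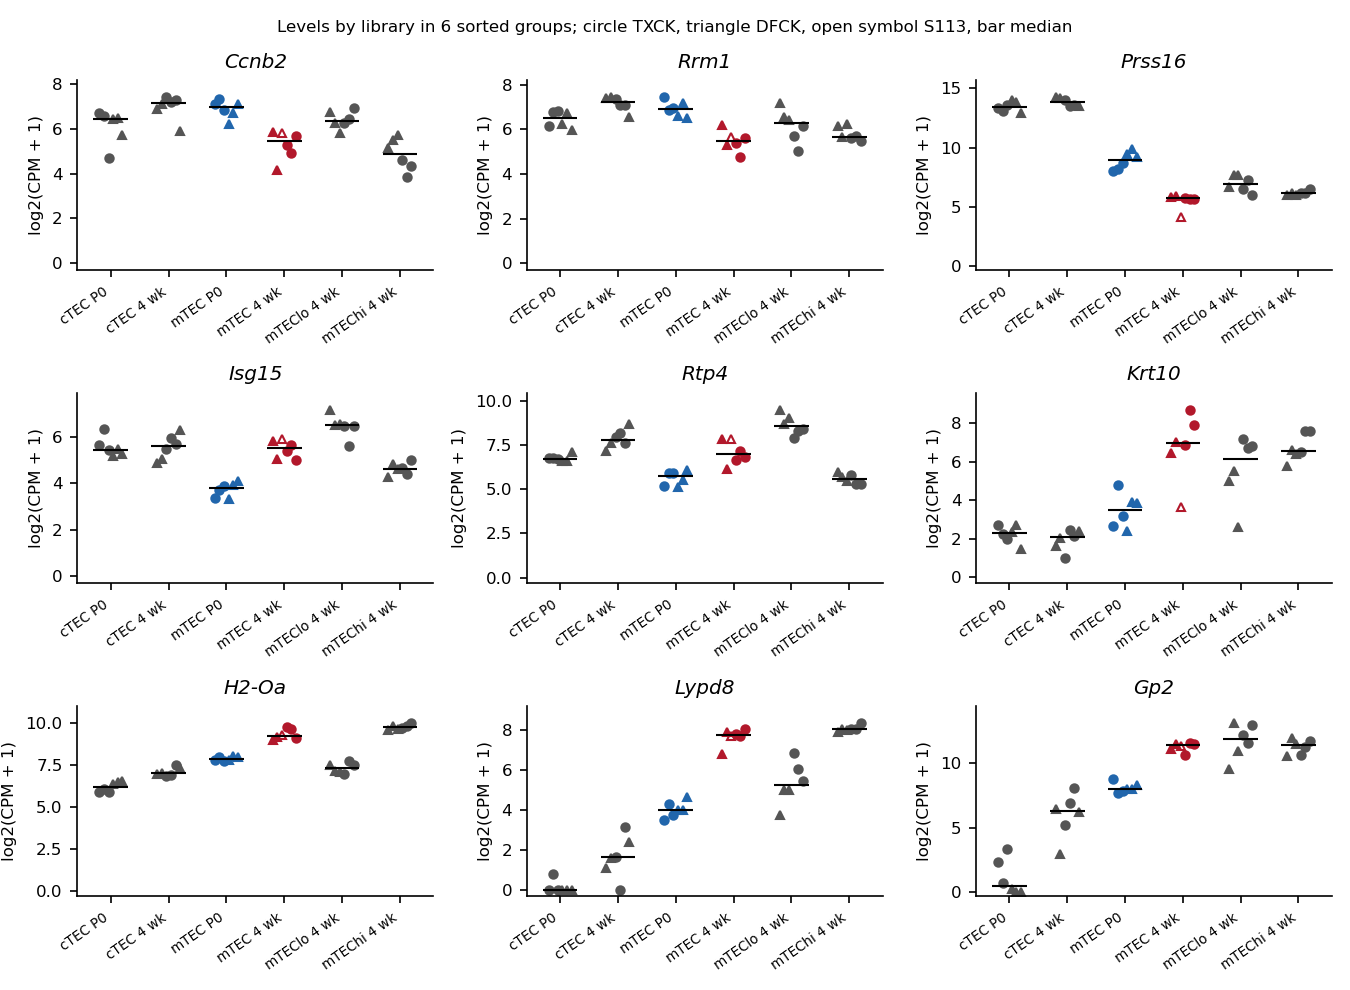
Levels of 9 genes on a log2(CPM + 1) scale in 6 sorted groups, 1 point per library, with mTEC at P0 in blue and at 4 weeks in red, the other groups in grey, circles for TXCK, triangles for DFCK, an open symbol for S113 and a bar at the median. The medians of Ccnb2 and Rrm1 were lower in mTEC at 4 weeks than at P0 and higher in cTEC, Prss16 was highest in cTEC at both ages, and Isg15 and Rtp4 were higher in mTEClo than in mTEChi.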

How the data were processed

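Reads of sorted thymic populations had been aligned with STAR 2.5.3a to mm10 and counted per gene with HTSeq, per the submitters' processing notes, and the deposited values were raw read counts, which the authors had not normalized. The 12 mTEC libraries were grouped by the age in their labels. The 98 entries of no Ensembl gene, 11.3 to 14.5% of reads in these libraries, were left out. Symbols and positions came from GENCODE M21 (37607 of 39179 gene IDs), promoters from RefSeq (GRCm38.p6).

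Ages were compared with edgeR 4.0.16 in R 4.3.3 (filterByExpr, TMM factors, robust quasi-likelihood test, two-sided, Benjamini-Hochberg adjustment over all genes tested, threshold 0.05) on the 12 libraries. mTEChi and mTEClo, and the difference of the age changes in mTEC and cTEC, were fitted likewise. The script was tested on simulated counts with known changes. Gene numbers were compared at a depth of 5000000 reads. Depth limits genes with few reads, and intervals were not drawn since PCR copies are not independent molecules. No library pair was alike within sampling noise (lowest chi-square per degree of freedom 24.2).

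Alternatives were RLE factors, no filter, a 10 CPM minimum, a term for the prefix, single prefixes, DESeq2 1.42.0, leaving out S113, and, added after the data were seen, the test of gene numbers at equal depth, a term for 10 or more Ddx3y reads, DFCK without S113 and, between sorted groups, a block for the step of the library number. The members and the 38 gene lists were chosen with earlier results of these data known. Genes named were the 12 largest changes each way among called, non-overlapping genes of at least 10 CPM, the first 3 and the 3 called members of smallest p each way in every list, all members of 4 regulatory lists, and the 5 largest differences each way from cTEC. Values are given for 171 of these 218 genes, and the rest, which did not pass or were too low to be tested, enter the list counts. Some list members are not reported here by name. Further list members and 13 sterol genes were named after their values were seen.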

Additional observations from a re-analysis of the deposited data

Results flagged for a closer look

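In a group of 6 libraries, the highest or lowest library was set apart where its gap to the nearest other, on the log2(CPM + 1) scale for genes and the plain scale for library measures, took more than 0.625 of the group's range (Dixon's limit). Chance sets apart about 5% of groups. S113 stood apart for more of these genes than any other library did, and the remaining genes stood apart through libraries of both ages. S113 was the highest library at 4 weeks for Ccl6 (334 CPM), Ccl9 (220.1 CPM) and Nfkbia (3657 CPM). S113 was the lowest library at 4 weeks for Car3 (8.02 CPM), Cd68 (0 CPM), Cd80 (0 CPM), Cd86 (0 CPM), Chuk (2.24 CPM), Dnajc7 (49.7 CPM), Epcam (341 CPM), Epha3 (0 CPM), Fezf2 (139.3 CPM), Icosl (78.2 CPM), Ifit1 (73.6 CPM) and Krt7 (176.02 CPM). S113 was the lowest library at 4 weeks for Krt77 (0.16 CPM), Ltbr (0 CPM), Mcm2 (0 CPM), Plagl1 (0 CPM), Prss16 (16.4 CPM), Tap2 (147.00 CPM), Tnfaip2 (0.641 CPM), Top1 (3.53 CPM), Traf6 (1.44 CPM) and Uhrf1 (18.6 CPM).

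At 4 weeks, S110 was highest for Mcm7 (95.9 CPM) and Oas2 (0.611 CPM). At 4 weeks, S110 was lowest for Cdkn2b (41.4 CPM), H2-Ob (62.4 CPM) and Lypd8 (108.9 CPM). At 4 weeks, S112 was lowest for Igf2bp3 (0 CPM), Mest (0 CPM) and Pax1 (0.458 CPM). At 4 weeks, S120 was highest for Upk3b (394 CPM). At 4 weeks, S120 was lowest for Fdft1 (19.9 CPM) and Relb (156.2 CPM). At P0, S38 was lowest for Tnfaip2 (3.69 CPM). At P0, S42 was highest for Trbv12-1 (0.923 CPM). At P0, S43 was lowest for Cdkn1a (51.9 CPM), Igf2 (1.98 CPM), Irf7 (49.2 CPM) and Ptbp2 (6.98 CPM). At P0, S45 was highest for Hmga2 (1.11 CPM), Msmo1 (167.96 CPM), Myl1 (90.9 CPM), Ndn (53.1 CPM) and Zim1 (0.101 CPM). At P0, S45 was lowest for Icosl (482 CPM) and Top1 (37 CPM). At P0, S46 was highest for Cenpa (70.9 CPM). At P0, S46 was lowest for Cdk1 (66.1 CPM), Csn2 (509.8 CPM), Rrm2 (138.7 CPM), Tmprss11d (147.6 CPM) and Trpm5 (0 CPM). Of library measures at P0, genes detected were lowest in S43, at 18286. Of library measures at P0, genes at equal depth were lowest in S43, at 17601.

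The age change differed between mTEC and cTEC (edgeR's quasi-likelihood test of the difference, Benjamini-Hochberg adjusted p under 0.05) for these genes, given as the log2 change in mTEC less that in cTEC. It was more positive in mTEC for Tmc7 (11.98), Kcne4 (11.83), Ppp2r2b (10.01), Eda2r (9.86), Sdcbp2 (8.38), Krt10 (4.08), Oasl1 (2.92), Dclk1 (2.45), Egr2 (2.30), Isg15 (1.74), Nfkbia (1.70), Junb (1.48), Cdkn1a (1.45) and Krt17 (1.10). It was more negative in mTEC for St8sia4 (-15.51), Trbv12-1 (-14.68), Upk3b (-13.95), Car3 (-13.75), Rhoh (-13.36), Ednrb (-10.21), Oas2 (-10.13), Fezf2 (-7.75), Ccl9 (-5.46) and Tnfrsf11b (-5.44). Next by size were Igfbp5 (-5.40), Alas2 (-5.17), Cldn4 (-5.12), Lyz2 (-5.08), Ly6d (-4.44), Krt19 (-4.03), Prss16 (-3.95), Apoa1 (-3.93), Psmb11 (-3.71) and Rrm2 (-3.52). Then came Mcm2 (-3.11), Fdps (-3.10), Top2a (-2.94), Cenpa (-2.61), Ccnb2 (-2.45), Rgs5 (-2.43), Fdft1 (-2.41), Uhrf1 (-2.33), Hsd17b7 (-2.28) and Aurka (-2.25). After these were Rrm1 (-2.23), Idi1 (-2.23), Ccl21a (-2.20), Psmb8 (-2.15), Ccl19 (-2.03), Mcm7 (-1.998), Krt14 (-1.97), Psme1 (-1.92), Hmmr (-1.87) and Hmga1 (-1.74). The smallest differences were in Ctsl (-1.49), Mcm6 (-1.39), Cdc20 (-1.28), Nsdhl (-1.24), Mcm4 (-1.21), H2-D1 (-0.85), H2-K1 (-0.70), Tap2 (-0.67) and Erap1 (-0.64). Against a median of -0.21 over all genes tested, negative differences outnumbered positive ones in this set as in the whole. A negative difference need not be a fall in mTEC, where Cldn4, Ly6d, Lyz2 and Alas2 rose and Fezf2 did not pass. In cTEC at P0, Cldn4 was at 0 to 0.185 CPM, Ly6d at 0 to 0.856 CPM and Fezf2 at 0 to 0.0778 CPM. Where a group lay at or near 0, the fitted size is no measure of fold. Alas2 and Rgs5 belong to the erythroid and mural markers, whose sums were higher in cTEC at 4 weeks, as given above. The part of such cells in their differences was not tested. With a block for the step of the library number, Apoa1, Car3, Ccl9, Cldn4, Erap1, Kcne4, Krt19, Mcm2, Oas2, Oasl1, Sdcbp2, Tmc7, Trbv12-1 and Upk3b did not pass (edgeR adjusted p = 0.0547 to 0.432).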

How the results depend on the processing

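The 589 genes that rose and 390 that fell numbered 1111 and 690 by DESeq2, 784 and 686 without S113, 376 and 267 in TXCK, 10 and 1 in DFCK, 30 and 3 in DFCK without S113, and 346 and 227 with the Ddx3y term. Genes that fell by more than 1 on the log2 scale were 1.18% of those tested, against 2.46% that fell. The more positive differences from cTEC numbered 502 by DESeq2 and 343 without S113 against 201, and genes higher in mTEChi 2718 without a filter against 1563. The difference in detected genes was -2323 in TXCK (exact permutation test, two-sided p = 0.1) and -3093 in DFCK (p = 0.2), where 3 against 3 libraries cannot go below 0.1, and -1978 without S113. Of the named genes that were called, 40 lost the call in TXCK, all but 5 in DFCK, 57 with the Ddx3y term, 9 with the prefix term and 3 without S113. Of 79 named genes not called, 34 changed sign under some alternative, and 15 passed by DESeq2 and 14 without S113. The cause of these changes was not tested. Keratins fell from 4 called members to 0 with the Ddx3y term, and tuft genes from 2 to 0. The age change under this term leans on S113 and S45, as given above. No paired analysis was possible because the ages share no replicate number. The numbers of cTEC, mTEC, mTEChi and mTEClo libraries run in the same steps within an age, and Ddx3y was absent at the same step in all 4 groups at 4 weeks and present at the same step in both at P0. Whether such libraries share mice is not given by the labels. Libraries at the same step had correlations of their deviations from group means of 0.0105 to 0.0912 between mTEChi and mTEClo, where 5 of 6 mTEChi libraries correlated best with their own step, and of -0.0581 to 0.0355 at 4 weeks and 0.0251 to 0.143 at P0 between mTEC and cTEC, where 3 and 5 of 6 did. With the step as a block, added after the data were seen, 1434 genes were higher in mTEChi and 697 in mTEClo, and 0.706% and 2.47% of genes tested had more positive and more negative changes in mTEC than in cTEC, against 1.16% and 4.21% without the block. Of the 2531 and 928 genes called without the block, 1671 and 479 were still called.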

Other observations

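Genes of sterol synthesis belong to no list above and were picked after their values were seen, so that their values are a description. Of 13 such genes 9 fell, where 2.46% of all genes did, and none rose. Insig1, which holds the pathway's regulator in check, was at 33.2 to 121.4 CPM (median 64.1) at P0 and 10.3 to 26.5 CPM (median 14.2) at 4 weeks (log2 fold change -2.03 ± 0.33 SE, edgeR adjusted p = 0.00229). The enzymes Hsd17b7 (-2.01), Fdps (-1.84), Fdft1 (-1.54), Lss (-1.35), Idi1 (-1.27), Cyp51 (-1.17), Hmgcs1 (-1.06) and Nsdhl (-1.002) fell too. Lss was lost with RLE factors, with the prefix term and without S113 (edgeR adjusted p = 0.0521, 0.0634 and 0.0629). Dhcr7 (-0.73), Msmo1 (-0.51), Mvd (-0.74) and Sqle (-0.48) did not pass, and Sqle did without S113 (-0.59, edgeR adjusted p = 0.0121).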
